A study of Mus musculus with 6 samples.

Results

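Bone morphogenetic protein (BMP) signalling was examined through 10 genes, namely 5 ligands (Bmp2, Bmp3, Bmp4, Bmp5 and Bmp7), 3 receptors (Bmpr1a, Bmpr1b and Bmpr2) and 2 antagonists (Sostdc1 and Fst). The genes were chosen by symbol, and all 10 were found among the 24961 genes that both expression tables hold. Mice were taken at postnatal day 1 and RNA was measured in the maxillary first molar, in 2 Ascl5Mut/Mut libraries (mutation on both alleles), 2 Ascl5Mut/WT libraries (mutation on 1 allele) and 2 Ascl5WT/WT libraries (wild-type control). Ascl5 is a transcription factor of the basic helix-loop-helix family. The labels give neither the base change nor the background strain nor how many animals or teeth a library pooled, so p-values measure the spread between these libraries, which may be technical. Values are normalized counts in 2 separately normalized tables, 1 per mutant genotype, and the same 2 Ascl5WT/WT libraries stand in both.

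BMPs are secreted ligands that bring type I receptors (Bmpr1a, Bmpr1b) and type II receptors (Bmpr2) together, and the activated type I receptor phosphorylates SMAD proteins that enter the nucleus and switch on targets such as Id and Msx genes. Antagonists such as Sostdc1, also called ectodin, and follistatin (Fst) hold ligands away from their receptors. In the mouse tooth germ, BMPs pass signals between epithelium and mesenchyme and act in the enamel knot, the signalling centre of the crown, and loss of Sostdc1 alters tooth number and cusp pattern.

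In short, Sostdc1 had the highest value per length of the 10 genes in Ascl5WT/WT molars. It stood at 0 in both Ascl5Mut/Mut libraries and was low in both Ascl5Mut/WT libraries. All mutant libraries had more Bmpr1a than either Ascl5WT/WT library, and both Ascl5Mut/Mut libraries had more Bmpr1b and Fst. Such separation was common: among all tested genes, 20.0% lay wholly above and 19.4% wholly below Ascl5WT/WT in Ascl5Mut/Mut. In Ascl5Mut/WT these shares were 19.8% and 17.9%. None of the tested differences of the 10 genes passed across all genes, and all rested on a few reads. Bmp3, with 2 or 3 reads in each mutant library and 0 in Ascl5WT/WT, was too low to test. The tooth ligands Bmp2 and Bmp4 had at most about 2 reads in any library.

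The libraries were shallow for genes of this level. Low values lay in clusters at multiples of a step of 108.7 to 139.8 normalized counts, which appears to be the value of 1 read. Dividing the total of each library, 12304814 to 13118122 normalized counts, by its step gave 90476 to 117157 estimated reads. Reads given below are values divided by the step of the library and rounded. A value of 0 is compatible with up to 3 reads, a floor of 326 to 419 normalized counts per library. An estimate of 13 reads has an exact 95% Poisson interval of 6.92 to 22.2 reads. These limits reflect counting error alone. Between 66.6% and 71.0% of all genes were listed at 0 in a library. Over the 10 genes, the summed estimate was 27 and 30 reads in Ascl5Mut/Mut, 32 and 20 in Ascl5Mut/WT, and 34 and 23 in Ascl5WT/WT. Bmpr1a was the 1 member above 0 in all 6 libraries.

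The strand setting used in counting is not given in the sources used here, and it limits what these values mean. The kit keeps the strand of each transcript. Msx1, a BMP target of the dental mesenchyme, was listed at 0 in 5 of the 6 libraries and reached 664 in the other, whereas its antisense gene Msx1os, whose span overlaps that of Msx1 by 2188 bases on chromosome 5, had 20145 to 82931 in every library. Exons of Bmp4, Bmp5, Bmpr1a and Fst overlap a gene on the opposite strand in the GENCODE annotation, and 1 of these partners is in the tables: Gm15217, which shares 89 exonic bases with Bmp4. Whether the reads counted for a member came from its own strand cannot be told from these values. A low value here therefore does not show that a gene was little expressed, nor a high value that it was strongly expressed.

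Promoters are shown for 2 members because Ascl5 belongs to a protein family that binds E-boxes, the letters CANNTG, which read the same on both strands. Windows cover the 250 bases before a RefSeq start site on GRCm38.p6, 5′ to 3′ on the strand of the gene, with E-boxes in capitals. The table of promoters held 5 of the 10 members (Bmp4, Bmp5, Bmpr1a, Bmpr1b and Bmpr2). Printed are the windows that hold an E-box and no annotated exon base. The Bmp4 window lies at chr14:46390670-46390919, minus strand, and the Bmpr1b window at chr3:141982265-141982514, minus strand, before 1 of its 3 listed starts.
Bmp4: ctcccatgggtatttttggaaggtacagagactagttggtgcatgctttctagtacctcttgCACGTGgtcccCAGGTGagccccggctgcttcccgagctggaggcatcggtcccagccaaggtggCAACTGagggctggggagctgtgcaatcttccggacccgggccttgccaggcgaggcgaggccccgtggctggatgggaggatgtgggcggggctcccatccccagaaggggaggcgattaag
Bmpr1b: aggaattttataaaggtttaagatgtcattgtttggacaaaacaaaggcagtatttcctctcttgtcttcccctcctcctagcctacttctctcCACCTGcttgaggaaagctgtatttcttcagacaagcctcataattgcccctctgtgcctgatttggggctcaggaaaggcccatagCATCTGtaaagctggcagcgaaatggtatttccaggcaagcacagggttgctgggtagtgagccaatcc
The Bmp4 window holds 3 E-boxes and the Bmpr1b window holds 2. Among all 32851 promoter windows of this length, 66.2% hold at least 1 E-box, so their presence here is common. Another Bmpr1b window holds 1 E-box, and the third Bmpr1b window and those of Bmp5, Bmpr1a and Bmpr2 hold none. A match of letters is a description and does not show that a factor binds.

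Markers of several cell types differed in summed level between genotypes. The 7 dental epithelium markers summed to 8516 to 29512 normalized counts in Ascl5Mut/Mut, against 30962 to 40704 in Ascl5WT/WT, with Epcam and Sp6 at 0 in Ascl5Mut/Mut. Of the enamel knot markers, 1 of 7 was above 0 in Ascl5Mut/Mut (sums of 280 to 554) and 4 of 7 in Ascl5WT/WT (2401 to 2802), and Fgf4, Fgf3 and Wnt10a were at 0 in both genotypes. Dental mesenchyme markers summed to 46349 to 72908 in Ascl5Mut/Mut, with 7 of 8 above 0, against 26942 to 32221 and 7 of 8 in Ascl5WT/WT. Of markers of other tissue, those of bone, osteoclasts, keratinized oral epithelium, endothelium and Schwann cells had higher sums in Ascl5Mut/Mut. Sums of skeletal muscle markers overlapped, at 4408 to 87520 in Ascl5Mut/Mut against 543 to 10268 in Ascl5WT/WT. Those of blood markers overlapped too, at 783 to 3283 against 453 to 16400. Bone markers summed to 27076 to 35456 in Ascl5Mut/Mut, with 6 of 6 above 0, against 438 to 7195 in Ascl5WT/WT, where Dmp1 and Phex were at 0. Osteoclast markers summed to 11955 to 17042 in Ascl5Mut/Mut, with 4 of 6 above 0, against 120 to 430 and 3 of 6 in Ascl5WT/WT. Keratinized oral epithelium markers summed to 19515 to 128451 in Ascl5Mut/Mut, with 9 of 9 above 0, against 219 to 540 and 3 of 9 in Ascl5WT/WT. The bone, osteoclast and keratinized oral epithelium lists stood higher in Ascl5Mut/WT too. Skeletal muscle, blood and endothelium sums overlapped there, and Schwann cell markers had no counts in Ascl5Mut/WT. Bone markers summed to 9963 to 25085 in Ascl5Mut/WT against 446 to 7495 in Ascl5WT/WT. Keratinized oral epithelium markers summed to 14446 to 49207 against 222 to 562. Enamel knot sums were 2093 to 2273 in Ascl5Mut/WT and 2480 to 2821 in Ascl5WT/WT, and dental epithelium sums 21276 to 56648 and 32507 to 41418. Of the tooth's matrix-forming cells, ameloblast markers summed to at most 140 in Ascl5Mut/Mut and 109 in Ascl5WT/WT, with Amelx at 0 in both. In Ascl5Mut/WT they summed to 945 to 1015, with 4 of 5 above 0, against at most 112.5 in Ascl5WT/WT. Odontoblast markers summed to 140 to 2942 in Ascl5Mut/Mut, with Dspp and Wnt6 at 0, against 1187 to 1736 in Ascl5WT/WT. Their sums in Ascl5Mut/WT were 10796 to 14931, against 1223 to 1770 in Ascl5WT/WT. In bulk tissue, fewer cells of a type and less RNA per cell cannot be told apart. The part of these shifts in the values of the receptors was not tested.

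Among the antagonists, Sostdc1, a secreted antagonist of BMP and Wnt signalling (chr12:36314139-36318452, plus strand, GRCm38), carried the largest differences. Both Ascl5Mut/Mut libraries were at 0, against 1413 and 1684 normalized counts in the 2 Ascl5WT/WT libraries, about 13 and 14 reads. In the other table it had 251 and 541 in Ascl5Mut/WT, about 2 and 4 reads, where the same Ascl5WT/WT libraries had 1450 and 1768. Both mutant groups therefore lay wholly below Ascl5WT/WT. Ascl5Mut/Mut was at 0 where Ascl5Mut/WT was low, but a value of 0 is compatible with up to 3 reads. The 2 mutant genotypes were normalized separately and were not compared with each other. On the log2(value + 120) scale the fold change was -3.79 in Ascl5Mut/Mut (SE 1.13, 95% interval -6.33 to -1.26), from limma, a linear model that shares its estimate of spread across genes. All later fold changes are log2 differences on this scale, mutant minus Ascl5WT/WT. It did not pass over all genes (unadjusted p = 0.00794, limma adjusted p = 0.445). Since Ascl5Mut/Mut is at 0, this size depends on the pseudocount and was -10.59 with a pseudocount of 1 and -2.03 with 500. In Ascl5Mut/WT the fold change was -1.80 (SE 0.88, 95% interval -3.57 to -0.02), with an unadjusted p of 0.0473 and a limma adjusted p of 0.643. The 2 comparisons share the Ascl5WT/WT libraries and are not independent of each other. The summed enamel knot and dental epithelium markers were also lower in Ascl5Mut/Mut. Gene by gene, 1 of 7 and 3 of 7 of these markers lay wholly below Ascl5WT/WT, where 13.5% of genes above 0 did. The 7 enamel knot markers include Fgf4, Fgf3 and Wnt10a, at 0 in both genotypes, which that share leaves out. The part of the enamel knot and dental epithelium markers in the Sostdc1 difference was not tested.

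Fst, or follistatin, which binds activins and some BMPs (chr13:114452290-114458951, minus strand), stood higher in both Ascl5Mut/Mut libraries. It had 562 and 685 normalized counts there, about 4 and 5 reads, against 323 and 0 in Ascl5WT/WT, about 3 and 0 reads. The groups did not overlap, but the fold change of 1.68 had an SE of 1.25 and did not pass (limma adjusted p = 0.697). Leaving out Ascl5WT/WT replicate 2 gave 0.74 and leaving out replicate 1 gave 2.63. The fold change was 5.11 and 0.81 with pseudocounts of 1 and 500. The Ascl5Mut/WT libraries had 636 and 0, against 330 and 0 in Ascl5WT/WT, so the groups overlapped.

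**Figure D1:**
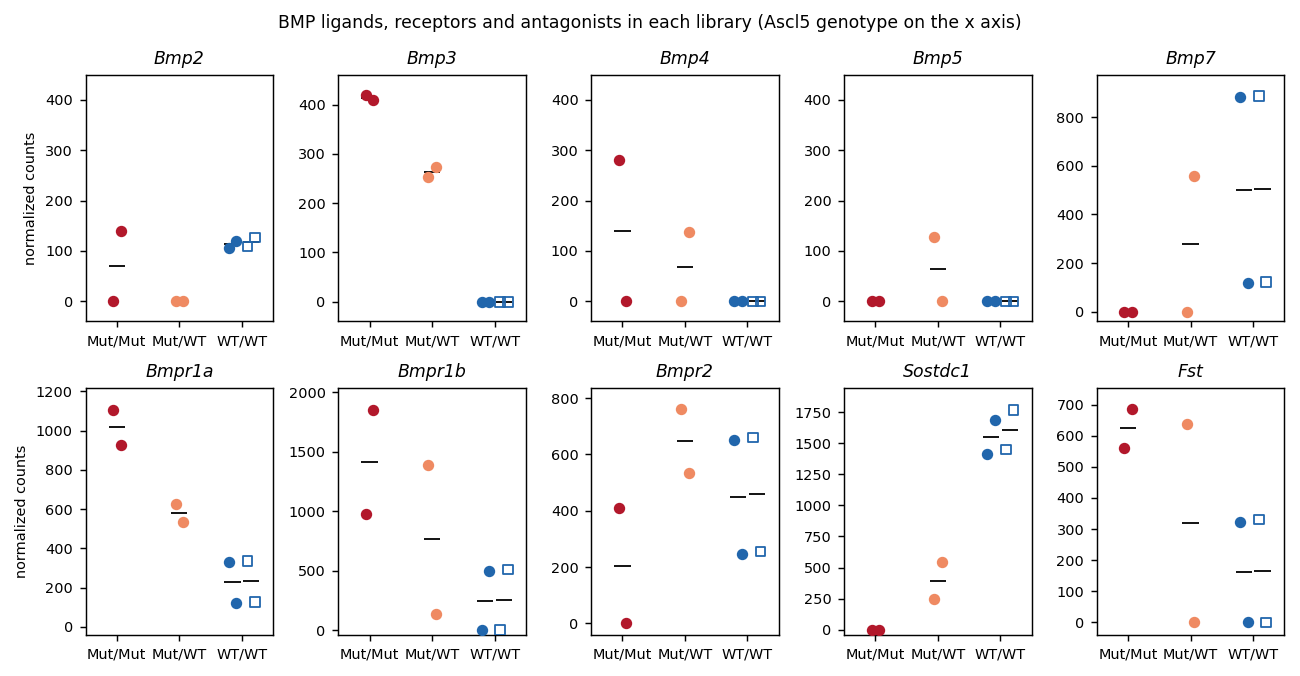
Normalized counts of each of the 10 genes (y axis, linear, own range per panel) in the 2 libraries of each Ascl5 genotype (x axis). Dots are libraries and short lines are group means. For Ascl5WT/WT, filled circles are values in the Ascl5Mut/Mut table and open squares those of the same libraries in the Ascl5Mut/WT table. Sostdc1 lies at 0 in Ascl5Mut/Mut and at 1413 or more in Ascl5WT/WT, while Bmp3 lies at 0 in Ascl5WT/WT and above 0 in all 4 mutant libraries.

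Both type I receptors had both Ascl5Mut/Mut libraries above both Ascl5WT/WT libraries, and neither passed the test. Bmpr1a, the widely expressed type I receptor (chr14:34410734-34503341, minus strand), had 1107 and 925 normalized counts in Ascl5Mut/Mut, against 330 and 124 in Ascl5WT/WT. These correspond to about 8 and 7 reads against 3 and 1. Ascl5Mut/WT libraries had 627 and 533, against 335 and 128 in Ascl5WT/WT. All 4 mutant libraries thus exceeded both Ascl5WT/WT libraries. The mean was 1016 ± 129 in Ascl5Mut/Mut and 227 ± 146 in Ascl5WT/WT (SD, n = 2 each). Its fold change was 1.77 in Ascl5Mut/Mut (SE 1.01, 95% interval -0.49 to 4.04, limma adjusted p = 0.618). In Ascl5Mut/WT it was 1.06 (SE 1.19, limma adjusted p = 0.853).

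Bmpr1b, the type I receptor known for its role in cartilage and digit formation (chr3:141837136-142169425, minus strand), had 977 and 1854 normalized counts in Ascl5Mut/Mut, against 0 and 494 in Ascl5WT/WT. That is about 7 and 14 reads against 0 and 4. The groups did not overlap, and the fold change of 2.44 (SE 1.13, 95% interval -0.11 to 4.98) did not pass (limma adjusted p = 0.608). Leaving out Ascl5WT/WT replicate 1 gave 1.26, and leaving out replicate 2 gave 3.62. The fold change was 5.92 and 1.40 with pseudocounts of 1 and 500. The 2 Ascl5Mut/WT libraries were far apart, at 1393 and 134, and overlapped the 0 and 510 of Ascl5WT/WT. The fold change there was 1.17 (SE 1.36, limma adjusted p = 0.859).

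Bmpr2, the type II receptor (chr1:59763400-59879014, plus strand), gave overlapping groups in both comparisons. It had 410 and 0 normalized counts in Ascl5Mut/Mut against 651 and 247 in Ascl5WT/WT, a fold change of -1.08 (SE 1.35, limma adjusted p = 0.821). In Ascl5Mut/WT it had 761 and 534 against 661 and 256 in Ascl5WT/WT, a fold change of 0.49 (SE 1.03, limma adjusted p = 0.932). With intervals of -4.11 to 1.96 and -1.61 to 2.58, neither comparison shows that its level stayed the same.

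**Figure D2:**
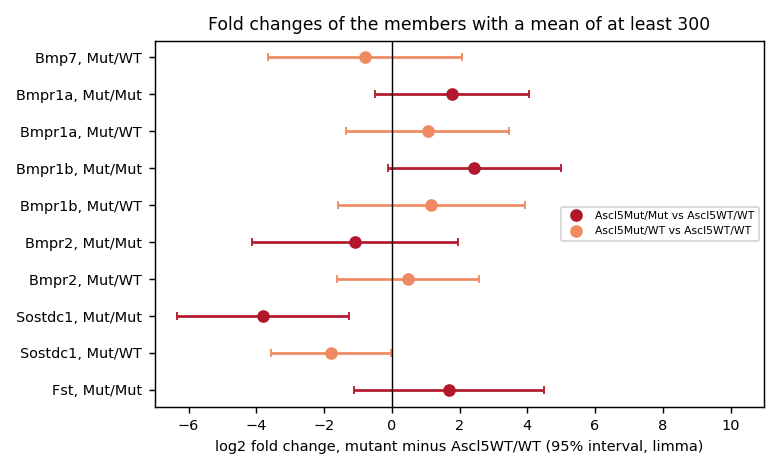
Log2 fold change (x axis, mutant minus Ascl5WT/WT on log2(normalized count + 120)) with its 95% limma interval for each member (y axis) whose mean reached 300. The intervals of Sostdc1 lie below 0 in both comparisons, -6.33 to -1.26 in Ascl5Mut/Mut and -3.57 to -0.02 in Ascl5Mut/WT, and all others include 0. The intervals are not adjusted for the number of genes tested.

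Of the 5 ligands, Bmp7 alone exceeded 3 estimated reads in a library. Bmp3, a BMP made in bone that counters other BMPs (chr5:98854415-98884396, plus strand), had no counts in either Ascl5WT/WT library. It had 419 and 409 normalized counts in Ascl5Mut/Mut, about 3 reads in each, and 254 and 273 in Ascl5Mut/WT, about 2 reads in each. All 4 mutant libraries lay above Ascl5WT/WT. A value of 0 in a single library is compatible with up to 3 reads, so no single pair of libraries separates the genotypes. Its mean was under the minimum of 300, and it was not tested. Bone markers were higher in both mutant genotypes too, and their part in the Bmp3 values was not tested.

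Bmp7, a ligand expressed in dental epithelium and the enamel knot (chr2:172868012-172940321, minus strand), stood at 0 in both Ascl5Mut/Mut libraries, against 881 and 119 normalized counts in Ascl5WT/WT, about 8 and 1 reads. The Ascl5WT/WT libraries differ so much that 1 of them holds nearly all of the difference. Ascl5Mut/WT had 0 and 558 against 886 and 121.95 in Ascl5WT/WT, which overlap, and the fold change was -0.79 (SE 1.42, limma adjusted p = 0.925). The part of the lower epithelial and enamel knot marker sums in the Ascl5Mut/Mut values was not tested.

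Bmp2, Bmp4 and Bmp5 never exceeded 2 estimated reads in a library. Bmp2, a ligand of the enamel knot and odontoblasts (chr2:133552159-133562885, plus strand), had 0 and 139 normalized counts in Ascl5Mut/Mut, against 106 and 120 in Ascl5WT/WT. Neither Ascl5Mut/WT library had counts, against 109 and 127 in Ascl5WT/WT. Bmp4, an early signal of the tooth germ (chr14:46383520-46390669, minus strand), had 281 and 0 in Ascl5Mut/Mut and 0 and 137 in Ascl5Mut/WT, and was listed at 0 in Ascl5WT/WT. Bmp5, a ligand of skeletal development (chr9:75775364-75900310, plus strand), had 127 in 1 Ascl5Mut/WT library and 0 in all others. No direction can be read from 1 or 2 reads.

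Per kilobase of annotated exon, which allows for gene length, the order of the members differed between genotypes. The strand of the counted reads is not known, so this is an order of listed values. In Ascl5Mut/Mut, Bmpr1b led with a mean of 237 normalized counts per kilobase, followed by Bmpr1a with 160 and Fst with 136, and the ranges of the first 2 overlapped, as did those of Bmpr1a and Fst. In Ascl5Mut/WT, Sostdc1 led with 222 per kilobase, and its range of 141 to 304 overlapped that of Bmpr1b, 22.4 to 234. In the Ascl5WT/WT libraries of the Ascl5Mut/Mut table, Sostdc1 led with 869 per kilobase, and its lowest library, 793, was far above the highest value of the next gene, Bmp7, at 219. The Ascl5WT/WT means of Bmp7, Bmpr1b, Bmpr1a, Fst, Bmp2 and Bmpr2, from 124 per kilobase down, each overlapped that of their neighbour in this order.

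The members' counts were read against those of all genes in the same fit. limma called 0 of the 5 members tested in either comparison, where 4 of 5714 genes (0.0700%) were called for Ascl5Mut/Mut and 21 of 5612 (0.374%) for Ascl5Mut/WT. At an unadjusted p under 0.05, 1 member stood out in each comparison, Sostdc1 both times, where 7.93% and 7.70% of all tested genes did. Of all 10 members, 4 had both Ascl5Mut/Mut libraries above both Ascl5WT/WT libraries (Bmp3, Bmpr1a, Bmpr1b and Fst), which 13.3% of the 12731 genes above 0 in any of the 4 libraries did. Sostdc1 and Bmp7 had both below, as did 13.5% of genes. Among tested genes alone, these shares were 20.0% above and 19.4% below. Bmp5, at 0 in all 4 libraries of this comparison, is among the 10 members but not among the 12731 genes. In Ascl5Mut/WT, 2 members lay wholly above (Bmp3 and Bmpr1a), where 14.5% of 12644 genes did, and 2 wholly below (Bmp2 and Sostdc1), where 11.8% did. Among tested genes alone, the shares were 19.8% above and 17.9% below. The share of all genes with all 4 mutant libraries above Ascl5WT/WT was not counted, and the 2 comparisons share the Ascl5WT/WT libraries. With 10 genes, several of them at 1 to 3 reads, these counts describe the members and are no test of the pathway.

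**Figure D3:**
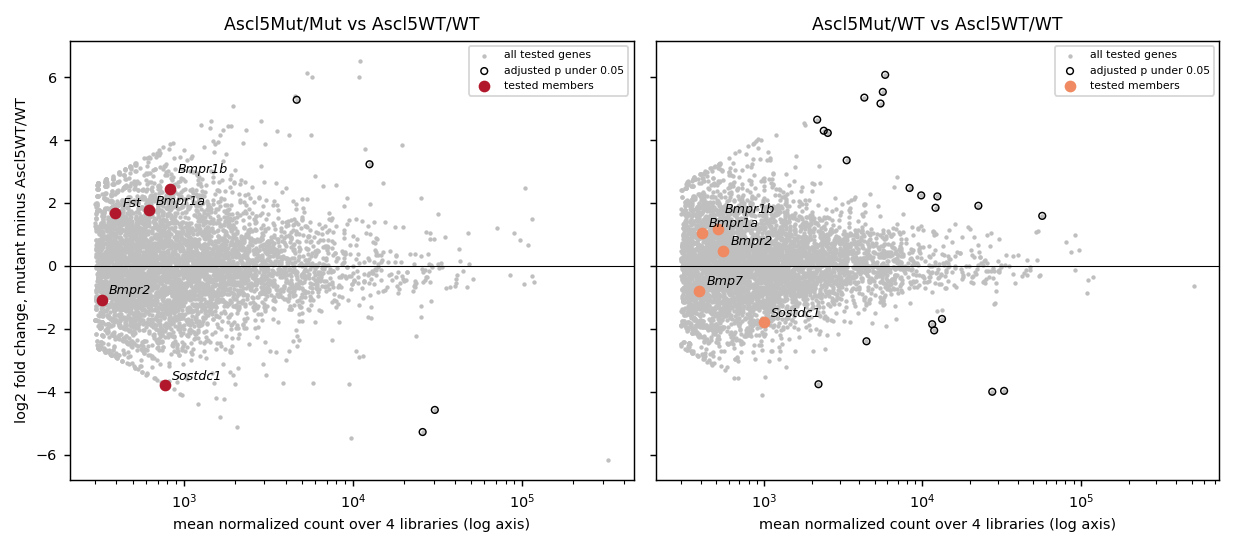
Log2 fold change (y axis, mutant minus Ascl5WT/WT) against the mean normalized count over the 4 libraries of a table (x axis, log axis) for all tested genes in grey, with called genes circled and the tested members named. The members lie at means of 327 to 1002, at the low end of the range, and none is among the 4 and 21 called genes.

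The other genes of the pathway, a list of 65 that covers ligands, receptors, modulators, intracellular members and targets, gave no call either. The list also holds TGF-beta and activin genes such as Tgfb2 and Smad3, which enter the counts and medians below. limma called 0 of 22 tested genes in Ascl5Mut/Mut (0 at an unadjusted p under 0.05) and 0 of 26 in Ascl5Mut/WT (3 at an unadjusted p under 0.05). Their median fold change was -0.41 in Ascl5Mut/Mut and -0.22 in Ascl5Mut/WT, where the medians over all tested genes were -0.01 and 0.04. Of the 65 genes, 18 had no counts in any library compared for Ascl5Mut/Mut, and 15 in any compared for Ascl5Mut/WT. In Ascl5Mut/Mut 4 of the 65 lay wholly above Ascl5WT/WT and 5 wholly below, where 13.3% and 13.5% of genes above 0 did. In Ascl5Mut/WT 9 lay wholly above and 4 wholly below, where 14.5% and 11.8% did.

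Among the other ligands, 0 of 4 tested genes were called in Ascl5Mut/Mut and 0 of 5 in Ascl5Mut/WT. Bmp1, which despite its name is a protease that releases BMPs from their antagonist chordin, had 1018 and 1105 normalized counts in Ascl5Mut/Mut against 229 and 121.9 in Ascl5WT/WT (fold change 2.02, SE 1.01, limma adjusted p = 0.608). The Ascl5Mut/WT values were 1626 and 445 against 234 and 127 (fold change 1.75, limma adjusted p = 0.744). All 4 mutant libraries lay above Ascl5WT/WT. Bmp6 and Bmp8b, ligands of the BMP7 group, gave overlapping groups in both comparisons, as did Tgfb2, a TGF-beta ligand. Exons of Bmp6, Bmp8b and Tgfb2 overlap genes on the opposite strand.

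Of the other receptors, 0 of 2 and 0 of 5 tested genes were called. Acvr2a, a type II receptor shared by activins and BMPs, had by far the highest value of the list, with 21417 and 28113 in Ascl5Mut/Mut against 23289 and 29341 in Ascl5WT/WT. Its exons share 446 bases with Orc4 on the opposite strand, so these reads may belong to either gene. Acvr1, a type I receptor, had 441 and 1128 in Ascl5Mut/Mut against 209 and 345 in Ascl5WT/WT (limma adjusted p = 0.764). Values were 932 and 566 in Ascl5Mut/WT against 212 and 359 in Ascl5WT/WT (fold change 1.09, limma adjusted p = 0.823). Rgma, a BMP co-receptor, had 882 and 862 in Ascl5Mut/WT against 328 and 121 in Ascl5WT/WT (fold change 1.60, limma adjusted p = 0.75).

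The modulators gave 0 calls among 4 tested genes in each comparison. Twsg1, which tunes the binding of chordin to BMPs, had 1112 and 1604 in Ascl5Mut/Mut against 1206 and 1712 in Ascl5WT/WT, and 0 and 941 in Ascl5Mut/WT against 1221 and 1772 (fold change -2.16, SE 1.02, limma adjusted p = 0.643). Fstl1, a secreted relative of follistatin, and Bambi, a decoy receptor, gave overlapping groups in Ascl5Mut/Mut. In Ascl5Mut/WT those of Fstl1 overlapped too, while Bambi, not tested there, had 125 and 0 against 221 and 636 in Ascl5WT/WT. Vwc2, a BMP antagonist of the chordin type, had no counts in Ascl5Mut/Mut against 319 and 491 in Ascl5WT/WT, and was not tested in that table. In Ascl5Mut/WT its groups overlapped.

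Inside the cell, 0 of 7 and 0 of 5 tested genes were called. Smurf1, a ubiquitin ligase that marks SMADs and receptors for degradation, had 1267 and 2094 in Ascl5Mut/WT against 0 and 488 in Ascl5WT/WT (fold change 2.70, SE 1.03, limma adjusted p = 0.468). In Ascl5Mut/Mut it had 560 and 419 against 0 and 468, which overlap. Smad7, an inhibitory SMAD that BMP signalling induces, had 710 and 722 in Ascl5Mut/Mut against 312 and 350 in Ascl5WT/WT (fold change 0.89, limma adjusted p = 0.792). It had 759 and 989 in Ascl5Mut/WT against 324 and 371 in Ascl5WT/WT, so all 4 mutant libraries lay above Ascl5WT/WT. Smad3, which carries TGF-beta and activin signals, and Smurf2 gave overlapping groups in Ascl5Mut/WT, and in Ascl5Mut/Mut too.

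Among the targets, 0 of 5 and 0 of 7 tested genes were called. In Ascl5Mut/Mut 3 of 11 lay wholly below Ascl5WT/WT and 0 wholly above, where 13.5% and 13.3% of genes above 0 did. In Ascl5Mut/WT 1 lay wholly below and 1 wholly above, where 11.8% and 14.5% did. Dlx5, 1 of the 11, had no counts in any library and is outside these shares. Msx2 is a homeobox gene that BMP4 induces in the tooth germ. In Ascl5Mut/Mut it had 0 and 541 against 1834 and 1097 in Ascl5WT/WT (fold change -2.45, SE 1.12, limma adjusted p = 0.608). Runx2, a regulator of bone and dental mesenchyme, had 0 and 141 in Ascl5Mut/Mut against 1405 and 540 in Ascl5WT/WT. Its fold change was -2.50 (SE 1.22, limma adjusted p = 0.608). Lef1, a Wnt effector of the tooth germ, had 884 and 678 in Ascl5Mut/Mut against 1237 and 1270 in Ascl5WT/WT. Its fold change was -0.62 (limma adjusted p = 0.821). In Ascl5Mut/WT the groups of Msx2 and Runx2 overlapped, and Lef1 had 436 and 777 against 1127 and 1183 in Ascl5WT/WT. Id1, an immediate target of BMP-activated SMADs, had 2123 and 558 in Ascl5Mut/WT against 221 and 0 in Ascl5WT/WT (fold change 2.61, SE 1.20, limma adjusted p = 0.628), and 276 and 0 in Ascl5Mut/Mut against 222 and 0. Exons of Runx2 and Lef1 overlap opposite-strand genes.

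**Figure D4:**
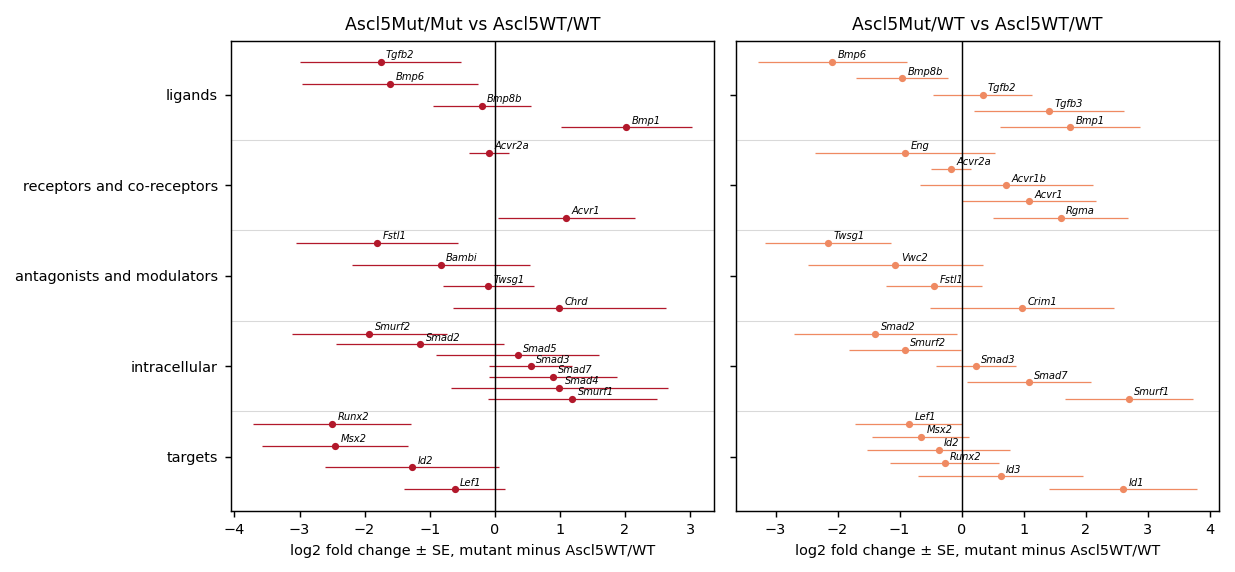
Log2 fold change ± SE (x axis, mutant minus Ascl5WT/WT) of the other listed genes with a mean of at least 300, grouped by role (y axis). Ascl5Mut/Mut is on the left and Ascl5Mut/WT on the right, with 1 target not drawn. Fold changes lie on both sides of 0 in most groups, the targets drawn lie below 0 in Ascl5Mut/Mut, and no gene passed the test.

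Over the 6 libraries the profile of Sostdc1 was most like those of Ecd (Pearson r = 0.988), Tcte1 (0.983) and Tigd4 (0.976), on log2(value + 120) among genes with a mean of at least 1000. That of Bmpr1b was most like Dlg1 (0.985), Pdss1 (0.966) and Otud7b (0.965). Of 2327 genes compared, 48 reached an r of 0.9 with Sostdc1 and 19 with Bmpr1b. These are descriptions over 6 libraries. How many genes an unrelated profile would reach at this r was not counted, so neither count shows that the genes are related. The values of the 2 mutant genotypes come from separately normalized tables, and those of Ascl5WT/WT are means over both tables.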

How the data were processed

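RNA libraries of 6 samples were made with the SMARTer Stranded RNA-Seq kit, per the labels' protocols. Normalized counts, a linear signal, were deposited by the authors, and the submitters' processing notes name mm10 and DESeq2. No source used here gives the aligner, annotation, versions or strand setting. The 2 tables were normalized separately (median ratios of 1.018 and 1.041 for the shared Ascl5WT/WT libraries), so tests stay within a table. The ratio differed between genes. Sostdc1 in Ascl5WT/WT replicate 1 had 1413 beside Ascl5Mut/Mut and 1450 beside Ascl5Mut/WT, while the Ascl5WT/WT mean of Lef1 was 1253 and 1155. The tables therefore differ by more than a single scale factor per library, and the sources used here do not say why. Values of up to 5 steps fell within 0.1 step of a multiple in 86.0% to 93.9% of cases, which does not recover whole reads, and count models were left out. Ascl5 itself had no counts in the 6 libraries and cannot check the genotype labels. The labels name 1 batch for all libraries.

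Each comparison used limma 3.58.1 (R 4.3.3) with an intensity trend on log2(value + 120), two-sided, for genes whose mean reached 300, with Benjamini-Hochberg adjustment over all of them and calls at 0.05. The pseudocount is about 1 read. An exact permutation test of 2 against 2 cannot go below 0.33 and was not used. The fit was tested on simulated data. Members, lists and settings were chosen with earlier results of these data known. All 10 members are named, and of the other pathway genes any called gene and, per role and comparison, the 2 with the highest mean and the 2 with the smallest p, except 1 target, which is counted but not reported here. Gene positions are from GENCODE M21 (GRCm38), which annotated all 75 listed genes, and promoters from RefSeq GRCm38.p6.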

Additional observations from a re-analysis of the deposited data

How the results depend on the processing

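Over all alternatives run, 0 members were called, and the smallest adjusted p of a member was 0.246 (Sostdc1 in Ascl5Mut/Mut with the replicate block, a fit with the replicate number as a term). A member had no fold change in an alternative where its mean fell under the minimum. This included some fits without a library that held most of its reads. Of the 106 member fold changes that remained, 103 kept their direction and stayed uncalled. The 3 that turned were in Ascl5Mut/WT, and in Ascl5Mut/Mut Bmpr2 came to -0.0045 without Ascl5Mut/Mut replicate 2 (-1.61 without Ascl5WT/WT replicate 2). In Ascl5Mut/WT, Bmp7 fell under the minimum mean without Ascl5WT/WT replicate 1, and Bmpr1b did so without Ascl5Mut/WT replicate 1. Neither has a fold change there, so their ranges do not cover every library. Leaving out 1 library otherwise gave -2.04 to 0.46 for Bmp7 (the highest without Ascl5Mut/WT replicate 1). It gave -0.024 to 2.46 for Bmpr1b (the lowest without Ascl5WT/WT replicate 1). For Bmpr2 it gave -0.041 to 1.01 (the lowest without Ascl5WT/WT replicate 2). The cause of these turns was not tested. For Sostdc1, leaving out 1 library gave -3.91 to -3.68 in Ascl5Mut/Mut and -2.22 to -1.38 in Ascl5Mut/WT. A minimum mean of 10 reached 4 and 5 more members, with adjusted p of 0.709 to 0.865 and 0.77 to 0.927. Other pathway genes gave 0 calls under all 24 alternatives, with at most 2 and 3 at an unadjusted p under 0.05.

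Counts over all genes were unstable. For Ascl5Mut/Mut, the 4 calls became 0 with a pseudocount of 1, 16 with 500, 1 with a minimum mean of 10, 20 with 1000, 11 with recomputed median-of-ratios size factors, 0 without the intensity trend, and 87 with the replicate block. The same-number libraries of a mutant genotype and Ascl5WT/WT showed no shared deviation (correlations of -0.01 and 0.02 over 2336 and 2370 genes). At this depth, that does not show whether the samples were paired. The calls for Ascl5Mut/Mut were 226 without Ascl5Mut/Mut replicate 1 and 0 without any 1 of the other 3 libraries. For Ascl5Mut/WT, the 21 calls became 0, 34, 12, 13 and 0 with a pseudocount of 1, one of 500, a minimum mean of 10, one of 1000 and no intensity trend. They were 1 without Ascl5WT/WT replicate 2 and 0 without any 1 of the others. In the 10 fits with 0 calls by limma, 177 to 550 genes had an unadjusted p under 0.05. Depth limits all member values: most rest on under 10 estimated reads.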
